A study of Mus musculus with 10 samples.

Results

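The gain of chromosome 5 was followed in 10 mouse leukemias through 21832 array probes, the probes on chromosome 5 of the mouse build mm9 beyond a closely tiled interval at its start. They were 5.71% of the 382487 autosomal probes and belonged to 402346 placed probes in all. The first began at 3560228 and the last ended at 152536960, a span of 149 Mb, with a median spacing of 5.71 kb and a largest gap of 1741 kb. Of these probes, 21525 (98.6%) passed the scanner's marks for background and saturation in either channel of every array. The chromosome was chosen by its level, the median log2 ratio, in these same tumours, so its levels are given as a description, without a test.

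All 10 leukemias were BCR-ABL1 tumours, driven by a fusion tyrosine kinase, and DNA came from GFP+ leukemic bone marrow cells. In 5 tumours the genotype was Ikzf1+/+ and in the other 5 it was Ikzf1+/-, with 1 copy of the gene for Ikaros, a transcription factor of lymphoid development, altered. Tumour DNA carried the dye Cy5 and was hybridised against Cy3-labelled DNA of stage-matched, non-leukemic bone marrow, which the design text of the series describes as DNA of B220+ B cells. The dyes were never swapped. The labels gave neither the age of the mice nor the promoter of the oncogene, nor a separate animal for each tumour. A p-value therefore measures only how these samples vary. A level is the median over probes of log2 of tumour over reference signal, with each array centred on its autosomal median.

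A normal mouse cell carries 2 copies of every autosome, and a trisomic cell carries an extra copy of every gene on the chromosome at once. Array hybridisation reads the mean copy number over all cells in the DNA sample, so an extra copy held by only part of the cells gives a smaller rise than one held by all of them. Mouse chromosome 5 carries Kit and Flt3, receptor tyrosine kinases of blood progenitors, Ptpn11, which encodes the signalling phosphatase Shp2, Sh2b3, which encodes the adaptor Lnk that restrains cytokine receptor signalling, and Cdk6, a kinase that drives entry into S phase.

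Chromosome 5 stood above the reference in Ikzf1+/+ tumour 3 and Ikzf1+/+ tumour 5. Its level in Ikzf1+/+ tumours 1 to 5 was 0.0032, 0.00080, 0.47, 0.00079 and 0.22 on the log2 scale. In Ikzf1+/- tumours 1 to 5 it was -0.0014, -0.00099, -0.0019, -0.0051 and 0.022. Ikzf1+/+ tumours 1, 2 and 4 lay within the range of the Ikzf1+/- tumours, so the gain was not shared by all tumours of the genotype. The levels of Ikzf1+/- tumours had an SD of 0.011 (n = 5), which was taken as the error of a level. Tumour 5 of that genotype set most of it: without that tumour the SD was 0.0019 (n = 4).

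The rise was carried by nearly all probes in tumour 3 and by most in tumour 5. In Ikzf1+/+ tumour 3, 98.7% of the probes lay above 0, with quartiles of 0.35 and 0.58. The share above 0 was 85.5% in Ikzf1+/+ tumour 5, with quartiles of 0.08 and 0.35, and lay between 48.9% and 54.6% in the other 8 tumours. Of 1440 windows of 100 kb on the chromosome, 1440 were above 0 in tumour 3 and 1421 (98.7%) in tumour 5. At or above 0.2 were 1436 windows in tumour 3 and 884 in tumour 5, that is 99.7% and 61.4% of the chromosome, where 6.28% and 5.55% of all 23426 autosomal windows reached that value. The other 8 tumours had between 1 and 25 such windows on chromosome 5.

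No other autosome of tumour 3 came near this level, whereas chromosome 19 matched it in tumour 5. The other 18 autosomes of Ikzf1+/+ tumour 3 lay between -0.031 and 0.027, the highest being chromosome 14. In Ikzf1+/+ tumour 5, chromosome 19 stood at 0.219 beside 0.218 for chromosome 5, and the next autosome at 0.011. In Ikzf1+/- tumour 5, the chromosome 19 median was raised without a like level of chromosome 5. Chromosome 19 was at 0.195, chromosome 14 at 0.039 and chromosome 5, at rank 3 of 19, at 0.022. Chromosomes 19 and 14 of that tumour were uneven, with an SD over 5 Mb bins of 0.138 and 0.126. For chromosome 19 of Ikzf1+/+ tumour 5 this SD was 0.031. The 0.195 is thus the median of an uneven chromosome, not a level held along it. Among 190 autosome medians of all tumours, 3 (1.58%) were at or above 0.2 when chromosome 5 of both gained tumours was counted in.

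**Figure D1:**
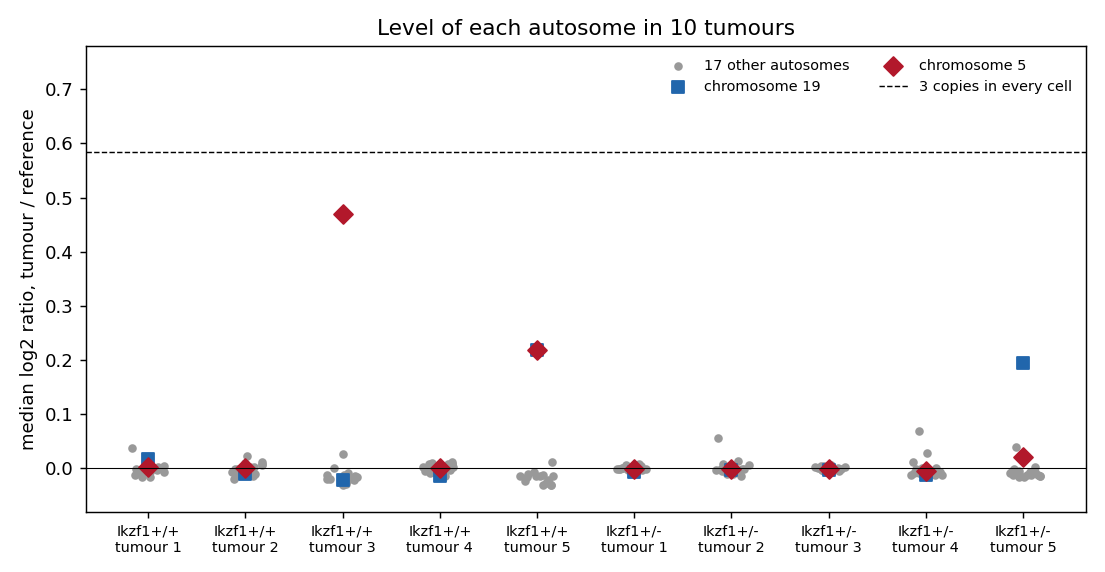
Median log2 ratio of tumour over reference for each of 19 autosomes in each tumour, with chromosome 5 as diamonds, chromosome 19 as squares and the other 17 autosomes as grey points; the dashed line is the level of 3 copies in every cell. Chromosome 5 is at 0.47 in Ikzf1+/+ tumour 3 and at 0.22 in Ikzf1+/+ tumour 5, where chromosome 19 lies on the same height.

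Under linear mixing of cells with 3 and with 2 copies, the level of Ikzf1+/+ tumour 3 corresponded to a mean of 2.77 copies and to 76.8% of cells with an extra copy. Taking 1 SD of the Ikzf1+/- levels as error, the share ran from 74.8% to 78.9%. For Ikzf1+/+ tumour 5 the mean was 2.33 copies and the share 32.7%, from 30.9% to 34.4%. With the SD of 0.0019 that leaves out Ikzf1+/- tumour 5, these ranges narrowed to 76.5% to 77.2% and 32.4% to 33.0%. On autosomes other than 5 and 19, the levels of Ikzf1+/+ tumours had SDs of 0.0084 to 0.016 (n = 5). The narrower ranges are therefore not a measure of the error in Ikzf1+/+ tumours. The same arithmetic gave 32.8% for chromosome 19 of Ikzf1+/+ tumour 5, a difference in level of -0.00095 between both chromosomes for the processed signals. Whether the same cells carried both extra chromosomes cannot be read from a mean over cells. With 4 copies in place of 3, the shares would be 38.4% in tumour 3 and 16.3% in tumour 5, since a single level cannot separate fewer cells with more copies from more cells with fewer.

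Ikzf1+/- tumour 5 had a small positive shift along most of the chromosome. Its level of 0.022 corresponded to 3.02% of cells with 3 copies, from 1.50% to 4.56% (2.76% to 3.29% with the SD of the other 4 Ikzf1+/- tumours), and 27 of 31 bins of 5 Mb were above 0. In the same tumour 970 of 1440 windows were above 0, where the other Ikzf1+/- tumours had 701 to 765. The median of its other 18 autosomes was -0.0089.

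Shares of cells depended on how far an array compresses ratios. X, which differs in copy number between the sexes, was used as a scale. It stood at 0.84, 0.94, 0.91, 0.93 and 0.92 in Ikzf1+/+ tumours 1 to 5 and Y between -2.87 and -2.30, the pattern of a female tumour against a male reference. The log2 ratio of 2 copies against 1 is 1. Divided by each array's X level, the level of tumour 3 corresponded to 86.1% of cells and that of tumour 5 to 35.9%. In Ikzf1+/- tumours X lay between 0.094 and 0.14 and Y between 0.050 and 0.095, so X was above 0 without a difference in sex. Divided by the X level after subtracting the mean of the Ikzf1+/- tumours, the shares became 101% and 41.4%. X did not move with chromosome 5 under normexp correction: it lay between 0.35 and 0.44 in Ikzf1+/+ tumours, while the chromosome 5 level of tumour 3 rose to 0.59. With unsubtracted median signals both fell, X to between 0.33 and 0.41 and chromosome 5 of tumour 3 to 0.36. X of Ikzf1+/- tumours fell too, to between -0.16 and -0.13 with normexp and between -0.20 and -0.17 with unsubtracted signals. The X-scaled shares therefore hold for the processed signals only.

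The way the ratio was made also moved the level. With normexp background correction on the median signals, tumour 3 stood at 0.59 and tumour 5 at 0.27, which correspond to 102% and 40.7% of cells. Median signals without background subtraction gave 0.36 and 0.17, or 56.8% and 25.3%. The deposited value table gave 0.47 and 0.22, as did the bright and unsaturated probes alone. The ratio of the tumour 5 level to that of tumour 3 moved less, between 0.451 and 0.476 over these settings. In all of them the other 8 tumours stayed between -0.0051 and 0.028.

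**Figure D2:**
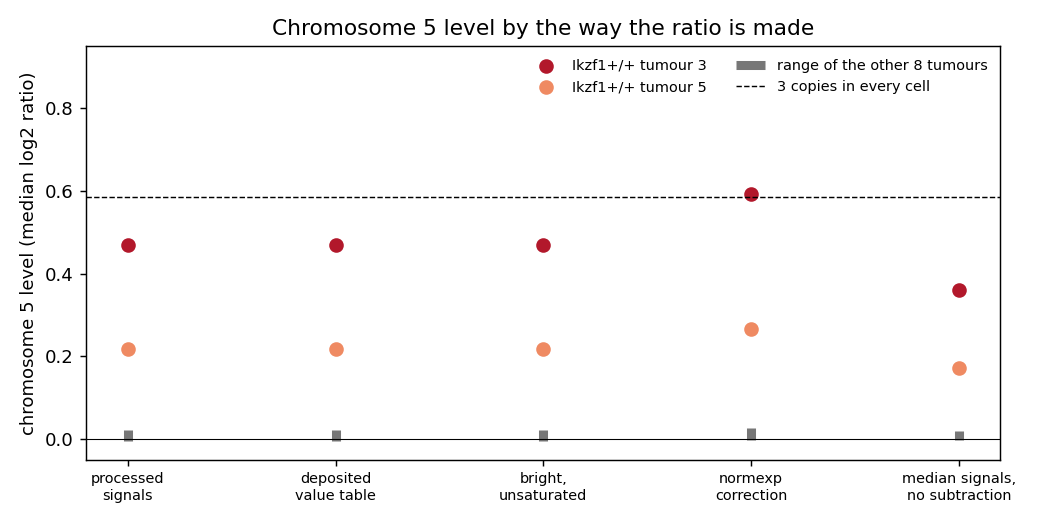
Chromosome 5 level, as median log2 ratio, in Ikzf1+/+ tumour 3 and Ikzf1+/+ tumour 5 under 5 ways of making the ratio; the grey bars span the other 8 tumours and the dashed line is 3 copies in every cell, 0.58. The gained tumours keep their order in every setting while their heights run from 0.36 to 0.59 and from 0.17 to 0.27.

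The gain ran along the chromosome from the first to the last bin. In 31 bins of 5 Mb, medians of Ikzf1+/+ tumour 3 lay between 0.37 and 0.54, with 31 of 31 at or above 0.2. Those of Ikzf1+/+ tumour 5 lay between 0.13 and 0.30, with 31 above 0 and 20 at or above 0.2. In no bin did another tumour reach the lowest value of either, since the other 8 kept between -0.14 and 0.080. The first and last bins were 0.37 and 0.40 in tumour 3 and 0.13 and 0.19 in tumour 5. Both tumours had their highest bin in the same place, the one beginning at 115000001.

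In bins of 1 Mb the picture was finer but alike. Of 146 such bins with at least 50 probes, 146 were above 0 in tumour 3, from 0.29 to 0.58, and 146 in tumour 5, from 0.021 to 0.33. The lowest of both tumours was the bin that begins at 109000001. That bin was also the lowest of the chromosome in Ikzf1+/- tumours 1, 4 and 5, at -0.11, -0.086 and -0.076, and it read -0.11 in Ikzf1+/+ tumour 2, so the drop was not limited to gained tumours. It read 0.0027 in Ikzf1+/+ tumour 1 and -0.011 in Ikzf1+/+ tumour 4, which had no drop there.

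**Figure D3:**
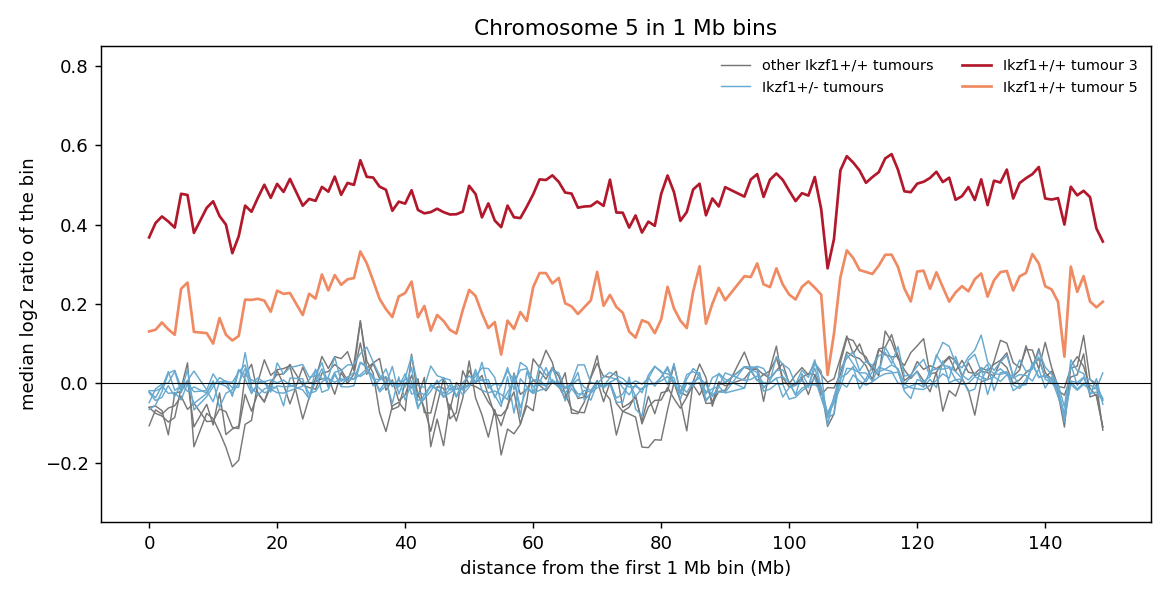
Median log2 ratio of 1 Mb bins of chromosome 5 against the distance from the first bin in Mb, for 10 tumours. Ikzf1+/+ tumour 3 runs between 0.29 and 0.58 and Ikzf1+/+ tumour 5 between 0.021 and 0.33, with the lowest bin of both at the same place, where Ikzf1+/+ tumours 1 and 4 do not drop.

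Bin values went up and down together most closely on Ikzf1+/+ arrays. Pairs of Ikzf1+/- arrays had a median correlation near that of pairs between genotypes. Across 31 bins of 5 Mb, Pearson's r between pairs of Ikzf1+/+ tumours was 0.769 to 0.958 with a median of 0.883, and between pairs of Ikzf1+/- tumours 0.557 to 0.833 with a median of 0.641. Over the 25 pairs between genotypes it was 0.146 to 0.810 with a median of 0.623. The pairs of Ikzf1+/+ tumour 1 with Ikzf1+/- tumours gave 0.146 to 0.498, and the other pairs between genotypes 0.452 to 0.810. These are descriptions over bins that share probes and base composition, and bins are not replicates. A linear slope along the chromosome was positive in all 10 tumours, 0.073, 0.057, 0.035, 0.041 and 0.054 per 100 Mb in Ikzf1+/+ tumours 1 to 5 and 0.0098 to 0.021 in Ikzf1+/- tumours. Ikzf1+/+ tumours 1 and 2, without the gain, sloped more steeply than tumours 3 and 5.

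Subtracting the array on the same slide removed part of these waves. Ikzf1+/+ tumour 3 minus Ikzf1+/+ tumour 4 gave a level of 0.46 and bins from 0.40 to 0.50, and the SD over bins fell from 0.041 to 0.022. Ikzf1+/+ tumour 5 minus Ikzf1+/- tumour 1 gave 0.22 and bins from 0.14 to 0.28, with an SD of 0.040 in place of 0.046. In 1430 windows of 100 kb, the difference was above 0 in 1429 for tumour 3 and in 1403 for tumour 5.

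**Figure D4:**
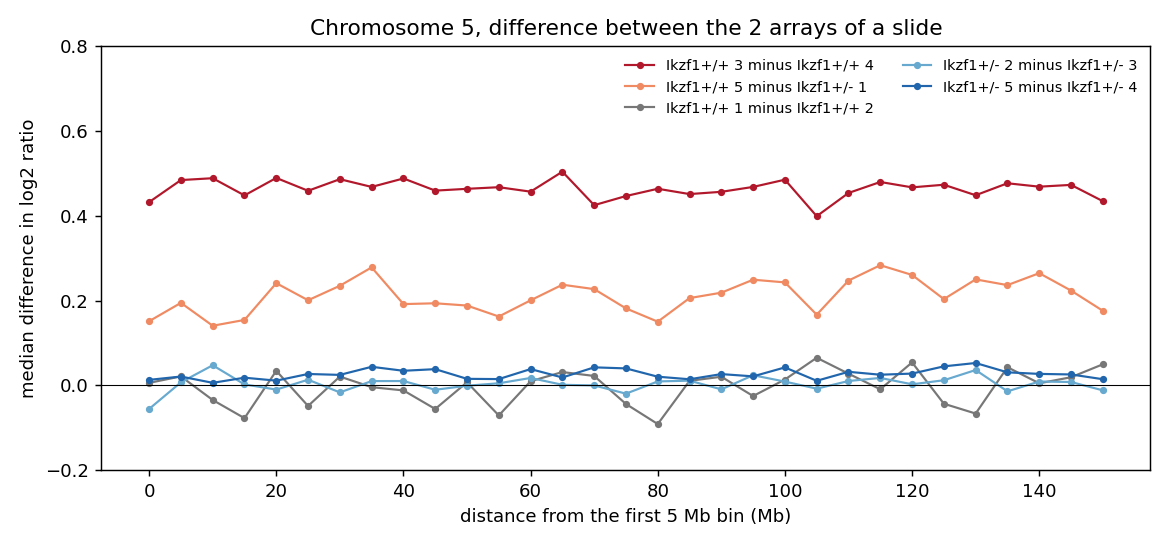
Median difference in log2 ratio between the arrays of one slide in 5 Mb bins of chromosome 5, against the distance from the first bin in Mb; each line is 1 of 5 slides. Ikzf1+/+ tumour 3 minus tumour 4 stays between 0.40 and 0.50 and Ikzf1+/+ tumour 5 minus Ikzf1+/- tumour 1 between 0.14 and 0.28, while the other 3 slides lie near 0.

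Unevenness, the SD over 5 Mb bins, was compared between genotypes. The chromosome was chosen by its level, but as a whole-chromosome gain and with earlier results of these data known. It was 0.063, 0.046, 0.041, 0.032 and 0.046 in Ikzf1+/+ tumours 1 to 5. Ikzf1+/- tumours 1 to 5 had 0.015, 0.024, 0.014, 0.018 and 0.024, with no overlap. The means were 0.046 ± 0.011 and 0.019 ± 0.0046 (SD, n = 5 each), a difference of -0.027 (two-sided exact permutation p = 0.00794, the smallest that 5 against 5 arrays allow, 0.0101 after Benjamini-Hochberg adjustment over 19 autosomes). Of 19 autosomes, 15 (78.9%) passed the same test, so chromosome 5 was 1 of many. The gained tumours 3 and 5 were not the most uneven, and the median over the other 18 autosomes of the same arrays was 0.034 and 0.043. Under normexp correction the difference was -0.0019 (exact permutation p = 0.921) and with median signals and no subtraction it was -0.0050 (exact permutation p = 0.571).

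Several properties of the arrays moved with the genotype. The median Cy5 signal was 88.4, 93.0, 159, 107 and 153 in Ikzf1+/+ tumours 1 to 5 and 199 to 225 in Ikzf1+/- tumours (exact permutation p = 0.00794), and sex against the reference differed as given above. Probe noise had an SD of 0.206 ± 0.015 in Ikzf1+/+ and 0.180 ± 0.0097 in Ikzf1+/- arrays (n = 5 each, exact permutation p = 0.0238). Only 1 of 5 slides held both genotypes. The part of signal brightness in the unevenness was not tested, and sex and genotype cannot be told apart. Probes of chromosome 5 were split by reference Cy3 signal into 4 equal groups. From dim to bright, the level was 0.48, 0.49, 0.48 and 0.43 in tumour 3 and 0.21, 0.24, 0.23 and 0.20 in tumour 5. Ikzf1+/- tumours read 0.0058 to 0.035 in the dimmest group and -0.027 to 0.00014 in the brightest. In Ikzf1+/+ tumours 2 and 4 the dimmest group was the lowest, at -0.012 and -0.017. A split of probes within an array cannot address the Cy5 difference between arrays.

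At the start of the chromosome the rule leaves out 1132 closely tiled probes between 3008399 and 3560008, with a median spacing of 0.23 kb. Their level was -0.085, -0.17, 0.23, -0.086 and -0.018 in Ikzf1+/+ tumours 1 to 5 and -0.15 to -0.090 in Ikzf1+/- tumours. Minus the array on the same slide it was 0.26 in tumour 3 and 0.031 in tumour 5, below the rest of the chromosome in both. The last 50 probes outside the rule had means of 0.34 in tumour 3 and 0.17 in tumour 5. The first 50 inside had means of 0.36 and 0.14, so no step coincided with the position used by the rule.

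Closely tiled places inside the chromosome also read lower in tumours 3 and 5, though not in every tumour. The 1699 probes in windows of 100 or more probes had a median of 0.36 in tumour 3 against 0.48 for the other 20133 probes, and 0.14 against 0.22 in tumour 5. Less the mean of the Ikzf1+/- tumours, the values were 0.37 against 0.47 and 0.15 against 0.22. Ikzf1+/- tumours themselves read -0.042 to -0.021 in those windows. Ikzf1+/+ tumours 1, 2 and 4 read 0.0057, -0.051 and -0.024 there, against 0.0028, 0.0041 and 0.0031 elsewhere. Tumour 1 was thus not lower. The windows beginning at 109900001 and 110000001 were the lowest, at 0.24 and 0.26 in tumour 3 and -0.016 and 0.042 in tumour 5. Those beginning at 151300001 to 151600001 read 0.36 to 0.42 in tumour 3 and 0.15 to 0.20 in tumour 5.

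Segmentation was used to look for breakpoints within the gain. Segments of at least 100 probes held 99.2% of the probes in Ikzf1+/+ tumour 3, with means of 0.23 to 0.54, and 99.5% in Ikzf1+/+ tumour 5, with means of -0.018 to 0.30. Segments of 5 or more probes that departed by at least 0.3 from the chromosome's level numbered 3 in tumour 3 and 1 in tumour 5. The other 18 autosomes of these tumours held 10 and 22 such segments in all, up to 5 and 6 on one chromosome. Among the other 8 tumours, chromosome 5 had 0 to 2.

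The longest departure in tumour 3 was a stretch from 143208648 to 143455382, 247 kb with 23 probes, that lay near 0 amid the gained chromosome. Its mean was 0.065 in Ikzf1+/+ tumour 3 (SD 0.167 over 23 probes), 0.40 below the chromosome's level, and 23 of 23 probes were below that level. In Ikzf1+/+ tumours 1, 2, 4 and 5 the stretch read 0.093, 0.063, 0.073 and 0.10, and in Ikzf1+/- tumours 0.016 to 0.069. All 10 tumours were thus close to one another in a place where tumours 3 and 5 stood apart on either side.

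Minus the array on the same slide, the 50 probes before, the stretch and the 50 probes after gave 0.56, -0.0082 and 0.46 in tumour 3. In tumour 5 they gave 0.22, 0.068 and 0.24, with an SD of 0.209 over the 23 probes of the stretch itself. The window beginning at 143200001 was the lowest of 1430 in tumour 3 by this difference, at -0.032, and the one beginning at 143400001 ranked 3, at 0.10. In tumour 5 these windows ranked 108 and 22 from the bottom, at 0.081 and -0.013. The probes of the stretch were of ordinary brightness, with a median Cy3 signal 1.05 times that of the chromosome, and a gap of 102 kb without probes lay inside it. The stretch was singled out after its values were seen and has no test.

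**Figure D5:**
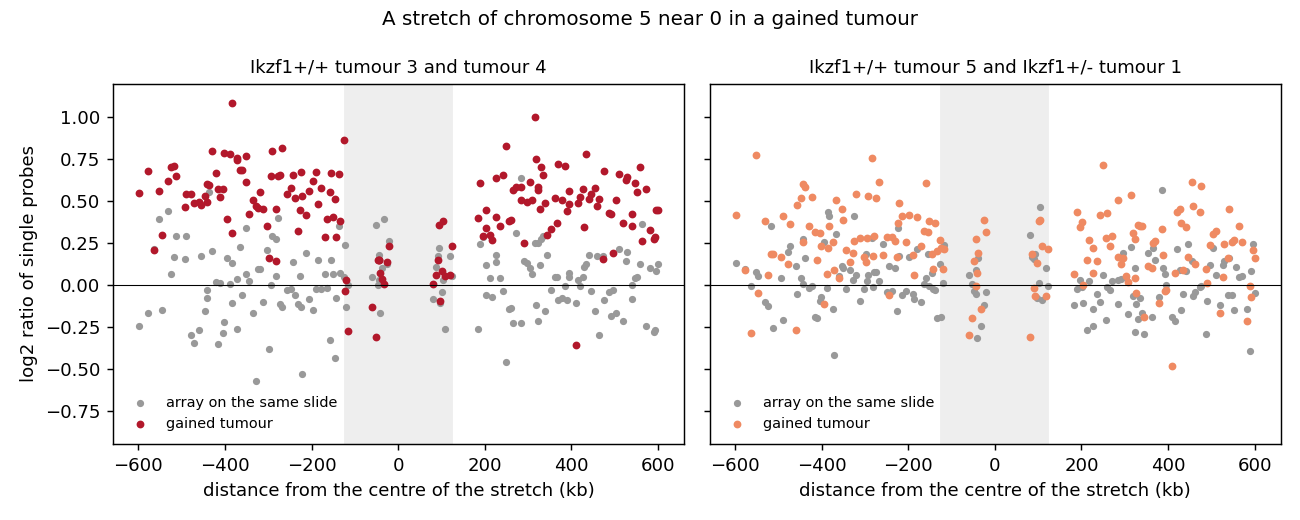
Log2 ratios of single probes within 600 kb of the centre of the stretch, for Ikzf1+/+ tumour 3 with the array on its slide (left) and Ikzf1+/+ tumour 5 with the array on its slide (right); grey shading marks the stretch. In the left panel the probes of tumour 3 drop onto those of the other array inside the shading and stand 0.56 and 0.46 above them in the 50 probes on either side.

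The other departing segments were short or moved in tumours without the gain too. From 110073806 to 110081860, 8 probes read -0.24 in tumour 3 and -0.58 in tumour 5, but also -0.37 in Ikzf1+/+ tumour 2 and -0.49 to -0.31 in Ikzf1+/- tumours. Ikzf1+/+ tumours 1 and 4, at 0.20 and 0.016, were not low there. The median Cy3 signal of these 8 probes was 4365, far above the rest of the chromosome. From 109987861 to 110015550, 88 probes read 0.16 in tumour 3, -0.080 in tumour 5 and -0.13 to -0.094 in Ikzf1+/- tumours. From 14871248 to 15184791, 9 probes read -0.47 to -0.23 in Ikzf1+/- tumours and -0.049, -0.28, 0.30, -0.079 and -0.10 in Ikzf1+/+ tumours 1 to 5.

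A pair of very short intervals was high in Ikzf1+/+ tumours without the gain and lay little above the chromosome's level in those with it. From 109984000 to 109986632, 13 probes read 0.40, 0.19, 0.49, 0.46 and 0.29 in Ikzf1+/+ tumours 1 to 5 and -0.085 to 0.073 in Ikzf1+/- tumours. From 151464063 to 151465063, 6 probes read 0.74, 0.18, 0.56, 0.49 and 0.29 in Ikzf1+/+ tumours and -0.15 to -0.023 in Ikzf1+/- tumours. Here tumours 3 and 5 did not stand apart from the other Ikzf1+/+ tumours. Relative to their own chromosome 5 levels, tumours 3 and 5 read only 0.025 and 0.072 in the first interval. In the second they read 0.087 and 0.073. Cy5 brightness and sex against the reference, which differed between the genotypes on the same arrays, were not tested as to their part in these values.

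Windows of 100 kb were compared between genotypes in limma after each chromosome of each array was centred on its own median, which takes out the whole-chromosome gain. Of 23426 autosomal windows 85 (0.363%) differed at a Benjamini-Hochberg adjusted p of 0.05, and of 1440 on chromosome 5, 12 did (0.833%). On chromosome 5, 11 were higher in Ikzf1+/- tumours and 1 was lower (0.764% and 0.0694%), against 0.201% and 0.162% of all autosomal windows. Most of the higher ones lay between 12200001 and 17400000, where Ikzf1+/+ tumours fell below their own chromosome's level.

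The window beginning at 16100001 had the smallest p. It read -0.20, -0.12, -0.18, -0.16 and -0.22 in Ikzf1+/+ tumours 1 to 5, relative to each array's chromosome 5. Ikzf1+/- tumours 1 to 5 read -0.0023, 0.090, 0.027, 0.0031 and 0.022, without overlap. The difference was 0.21 (SE 0.029, limma adjusted p = 0.0179), and it was 0.22 on the slide with both genotypes. Tumours 3 and 5 moved with the other Ikzf1+/+ tumours here. In the lower window, which begins at 119600001, Ikzf1+/+ tumours had a mean of 0.14 ± 0.028 and Ikzf1+/- tumours one of -0.067 ± 0.077 (SD, n = 5 each). They differed by -0.20 (SE 0.035, limma adjusted p = 0.0359).

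The other called windows had differences of 0.15 to 0.27, with limma adjusted p-values up to 0.0463. Their number rested on single arrays: it was 5, 20 and 4 without Ikzf1+/+ tumour 1, 3 or 4, and 1, 2, 7, 3 and 4 without Ikzf1+/- tumour 1, 2, 3, 4 or 5. Taking the median over the probes of a window in place of the mean left 0.

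Without that centring the fit includes the gain, and its chromosome 5 values are given as a description. It called 5 of 23426 windows (0.0213%) 4 higher and 1 lower in Ikzf1+/- tumours (0.0171% and 0.00427%). The lower one was the only call among 1440 windows on chromosome 5, from 52500001 to 52600000 with 19 probes. This window read 0.39, 0.23, 0.49, 0.25 and 0.30 in Ikzf1+/+ tumours 1 to 5 and -0.015 to 0.019 in Ikzf1+/- tumours. Ikzf1+/+ tumours 1, 2 and 4, without the gain, were thus high there. In tumours 3 and 5 the values stood beside chromosome 5 levels of 0.47 and 0.22, so they include the gain. With each chromosome centred, the window was not among the 12 called on chromosome 5. Without that centring the difference was -0.33 (SE 0.045). The call was lost when any array other than Ikzf1+/+ tumour 3 was left out, with 0 windows called. The median difference over chromosome 5 was -0.13, and 1394 of 1440 windows were lower in Ikzf1+/- tumours, a difference that includes the levels of tumours 3 and 5.

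For the named genes of the chromosome, positions in mm9 were not used here, so no value is given for a single gene. The gene table at hand, of build GRCm38, lists 1269 protein-coding genes on chromosome 5, among 20665 on all autosomes, and 58 miRNA genes. In its order, Cdk6 is protein-coding gene 25 of 1269, and whether it lies in the closely tiled interval that the rule leaves out, at 0.23 in tumour 3 and -0.018 in tumour 5, was not determined. Kit is number 438, between Pdgfra and Kdr, which encode receptors for platelet-derived and vascular endothelial growth factors. Ptpn11 is number 856 and Sh2b3 number 871, between Atxn2 and Pheta1. Flt3 is number 1241, near the end, between Urad and Pan3.

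In each of the 146 bins of 1 Mb with at least 50 probes, tumour 3 had a log2 ratio of at least 0.29, and 90% of its 100 kb windows, those between the lowest and highest 5%, read 0.35 to 0.58. In tumour 5 the lowest 1 Mb bin was at 0.021 and the corresponding windows read 0.072 to 0.34. These ranges set no bound for a gene: in tumour 5, 19 of 1440 windows were at or below 0, and in tumour 3 the 247 kb stretch read 0.065. A list of genes with known roles in blood cancers and in signalling had 36 distinct members in the table, and 36 of 36 were on chromosome 5, as the list was drawn up for it. Levels of RNA or protein were not measured on these arrays.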

How the data were processed

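Chromosome 5 and its gene list were chosen with earlier results of these data known. Per the file headers and labels, each deposited scanner file holds Cy5 and Cy3 intensity per spot, background-subtracted and dye-normalised by the scanner software (Agilent Feature Extraction 10.5.1.1 per the submitters' processing notes, 10.7.3.1 and build mm9 per the file headers). The deposited files also hold the software's log10 ratio of processed Cy5 over Cy3, per the file headers. The deposited value table holds log2 ratios, with a slope of 1.00 on that ratio after conversion.

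The log2 ratio of processed signals was centred on each array's autosomal median, after outlier spots were left out and spots of a probe averaged. Mean signals were not used here, so the median signals served in the 2 alternatives planned on means. Windows of 100 kb with at least 3 probes were fitted with limma 3.58.1 (R 4.3.3) over all autosomes and tested on simulated data. Single values were compared by two-sided exact permutation tests. Change points came from penalised least squares (PELT; numpy 2.4.6, numba 0.67.0), tested on simulated data. The chromosome 5 level was also compared between genotypes by permutation, but no p-value is reported because the level chose the chromosome. Its differences are given as a description. The number of arrays limits the precision. Named were Kit, Flt3, Ptpn11, Sh2b3 and Cdk6, and every chromosome 5 window past the threshold. Alternatives covered the background correction, signal, probe filters, centring, window summary, slide, replicate block and leaving out each array.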

Additional observations from a re-analysis of the deposited data

Results flagged for a closer look

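Among the 5 Ikzf1+/- tumours, tumour 5 was separated from the rest in its chromosome 19 level, 0.195, and, as a description only since this level chose the chromosome, in its chromosome 5 level, 0.022. Among the 5 Ikzf1+/+ tumours, tumour 5 was separated in its chromosome 19 level, 0.219. The gap to the next tumour exceeded 0.71 of the group's range, which for a single level not picked from the data chance reaches in about 1 group in 20. Several levels, shapes and intervals were screened in this way in each group, and only those past the threshold are given. That rate therefore does not hold for the screen as a whole.

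Genotypes differed in sex chromosome levels, with Ikzf1+/- minus Ikzf1+/+ differences of -0.79 for X and 2.64 for Y, and in the unevenness of chromosome 5, -0.027. The window beginning at 52500001, at -0.33 with the gain included, is a description, because that fit holds the levels that chose the chromosome. With each chromosome centred, the windows that differed between genotypes were those beginning at 16100001 (0.21), 17200001 (0.21), 15400001 (0.19), 17300001 (0.24), 57700001 (0.18), 58900001 (0.27), 12800001 (0.20), 119600001 (-0.20), 12200001 (0.18), 82700001 (0.15), 5100001 (0.18) and 15700001 (0.15). No cause of these differences was tested.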

How the results depend on the processing

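The gain in Ikzf1+/+ tumours 3 and 5 kept its direction under each alternative run, but its height did not. Levels were 0.59 and 0.27 with normexp correction, 0.36 and 0.17 with unsubtracted median signals, and 0.48 and 0.24 when arrays were centred on autosomes other than 5 and 19. The shares of cells with 3 copies were then 102% and 40.7%, 56.8% and 25.3%, and 79.5% and 35.5%. The 247 kb stretch near 0 lay 0.40 below the level of tumour 3, and its difference was -0.48 with normexp and -0.30 with unsubtracted signals, alternatives chosen after seeing the data.

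The genotype difference in the chromosome 5 level is a description only, because it includes the levels that chose the chromosome. It ranged from -0.17 to -0.053 with single arrays left out, the latter without Ikzf1+/+ tumour 3. No genotype effect on the level is drawn from this range. The difference in unevenness ranged from -0.030 to -0.022 in that way. It was -0.0019 with normexp and -0.0050 with unsubtracted signals, and -0.027 with the replicate block (exact sign-flip p = 0.0625, the smallest 5 pairs allow). Replicate numbers did not pair the samples: same-numbered deviations correlated at 0.044, 0.045, -0.018, 0.0035 and 0.20.

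With each chromosome centred, the 12 called windows became 31 with normexp, 3 with unsubtracted signals, 0 with window medians, 21 with at least 10 probes, 4 with the replicate block, 28 with the slide as a random block, and 1 to 20 with single arrays left out. With the gain included, the 1 called window became 7 with normexp and 0 with unsubtracted signals, window medians, at least 10 probes, the other centring or the replicate block, and 0 to 1 with single arrays left out. The causes were not tested.

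The number of arrays, slides with a single genotype and probe spacing limit what can be seen: segments of under 5 probes were not counted.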
